A study of Mus musculus with 5 samples.

Results

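Reference genes are the transcripts against which a target is normalized in quantitative reverse transcription PCR (RT-qPCR). The 9 genes described here are Gapdh, Actb, Hprt, Tbp, B2m, Ppia, Ywhaz, Sdha and Gusb. They were chosen by name as common reference genes, with earlier results of these data known but by no rule on their measured values. All 9 were found among the 55487 genes of the counts table. HT22 cells, an immortalized mouse line derived from hippocampus, were transfected with 10 nM siRNA and their poly(A) RNA was sequenced after 48 h. One library came from GAS5 siRNA210, 2 came from GAS5 siRNA596 and 2 came from a negative control siRNA (NC), and the GAS5 siRNA libraries together are called KD. Each group is cells of a single line, and nothing in the sources used here says whether replicate libraries came from separate cultures, so *P*-values measure only the spread between these libraries. Gas5 is a long non-coding RNA, and its level in the study's RT-qPCR was expressed relative to GAPDH.

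A relative RT-qPCR value is a ratio. If the reference transcript rises in the treated cells, the target appears to fall by the same factor, and if the reference falls, the target appears to rise. Commonly used reference genes are therefore picked from cellular functions that most cells need, such as glycolysis (Gapdh), the cytoskeleton (Actb), purine salvage (Hprt), basal transcription (Tbp), antigen presentation (B2m), protein folding (Ppia), phosphoprotein binding (Ywhaz), the citric acid cycle (Sdha) and lysosomal breakdown of glycosaminoglycans (Gusb). A difference of 1 on the log2 scale between RNA levels corresponds to 1 PCR cycle at full efficiency.

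The study's primers were matched to annotated mouse transcripts of GENCODE M21 on GRCm38, since a reference assay reads only what its primers amplify. The products are shown 5′ to 3′ with the primer sites in capitals.
GAPDH product: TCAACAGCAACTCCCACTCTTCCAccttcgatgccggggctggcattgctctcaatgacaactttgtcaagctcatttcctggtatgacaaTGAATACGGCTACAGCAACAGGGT
lncRNA-GAS5-234 product: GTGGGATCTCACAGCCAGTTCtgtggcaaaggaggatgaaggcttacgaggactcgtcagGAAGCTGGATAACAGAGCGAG
lncRNA-GAS5-456 product: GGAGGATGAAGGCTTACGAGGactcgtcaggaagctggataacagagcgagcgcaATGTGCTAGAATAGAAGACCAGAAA
The GAPDH product has 115 bases and lies in the coding sequence of transcript Gapdh-201, on the minus strand of chromosome 6 at chr6:125162212-125162293 (exon 6) and chr6:125162069-125162101 (exon 7). Both primers matched 6 of the 13 annotated Gapdh transcripts. They also matched transcripts of 48 other genes in full, of which 46 are annotated as processed pseudogenes and 2 as protein coding. In 28 of the 48 the whole product between the primers was identical to that of Gapdh. Processed pseudogenes are intronless copies of an mRNA in the genome, so such a product does not tell cDNA of Gapdh from genomic DNA of a copy. By contrast, neither GAS5 pair had a primer match in any other annotated gene. The lncRNA-GAS5-234 product has 81 bases and lies on the plus strand of chromosome 1 in exons 2 to 4 of transcript Gas5-210 (chr1:161035787-161035804, chr1:161035983-161036014 and chr1:161036208-161036238), and this pair matched 16 of 25 annotated Gas5 transcripts. The lncRNA-GAS5-456 product has 80 bases, lies in exons 3 to 5 of the same transcript (chr1:161035995-161036014, chr1:161036208-161036244 and chr1:161036549-161036571) and was matched in 10 of the 25.

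The 5 libraries held between 30660265 and 36492134 counted reads. Gas5, the targeted transcript, had 3178 reads in NC replicate 1 and 2916 in NC replicate 2. It had 2134 reads in the siRNA210 library, 2357 in siRNA596 replicate 1 and 4727 in the library labelled siRNA596 replicate 2. The last of these went against its label, since its Gas5 count was the highest of the 5, and it also stood apart across the transcriptome (chi-square per gene 439.8 between the siRNA596 replicates against 28.7 between the NC replicates). The authors' deposited KD comparison gave the mean counts of the other 4 libraries, with a largest difference of 0.0977%. The tests, ranges and relative Gas5 values of the 9 genes are therefore given for all 5 libraries and for the 4 without the library labelled siRNA596 replicate 2. As for the line itself, of 16 neuronal marker genes Tubb3 and Map2 exceeded 100 reads in every library. Another 7, among them Rbfox3, Snap25, Nefl and Dcx, had at most 3 reads in any. Above 100 reads in every library were also 1 of 5 astrocyte markers (Slc1a3) and 1 of 5 microglial markers (Tmem119), but none of 5 oligodendrocyte markers.

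The first question was whether any reference gene differed between KD and NC. With all 5 libraries none of the 9 had an unadjusted *P* under 0.05 in edgeR's quasi-likelihood test, where 0.372% of all 16142 genes tested did. With the 4 libraries 1 of the 9 did, namely Gapdh, against 3.3% of all 15867 genes. After Benjamini-Hochberg adjustment no gene of the transcriptome passed 0.05 in either fit (0% of genes), and 60 and 523 genes, respectively, had an unadjusted *P* under 0.05. DESeq2 called 0 and 1 genes at an adjusted *P* of 0.05, and none of them was a reference gene. In bulk RNA, fewer cells of a type and less RNA per cell cannot be told apart.

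Gapdh encodes glyceraldehyde-3-phosphate dehydrogenase, the glycolytic enzyme that oxidizes glyceraldehyde 3-phosphate. It had 6854 and 5665 reads in the NC libraries, 8453 in the siRNA210 library, 8303 in siRNA596 replicate 1 and 7173 in the library labelled siRNA596 replicate 2. As counts per 1000000 reads (CPM, a level per library depth) with TMM scaling over the 4 libraries, this was 202 and 154 in NC against 245 and 241 in KD. All KD libraries lay above both NC libraries, and the NC libraries differed from each other more than the KD libraries did. The log2 fold change of KD against NC was 0.45 with a standard error of 0.12 in the 4 libraries (edgeR unadjusted *P* = 0.0045, adjusted *P* = 0.967), and 0.53 ± 0.23 (SE) in all 5 (unadjusted *P* = 0.067, adjusted *P* = 0.963). Without NC replicate 2 the 4-library value was 0.27 ± 0.056 (SE, edgeR adjusted *P* = 0.968), and without NC replicate 1 it was 0.66 ± 0.057 (SE, adjusted *P* = 0.207). NC replicate 2 therefore changed the size of the Gapdh difference by more than 1.5 times, but not its direction.

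In the 4 libraries the other 8 genes were closer to NC, whereas in all 5 Actb (log2 fold change 0.55 ± 0.53, SE) and Ppia (0.53 ± 0.42, SE) had values like that of Gapdh, with edgeR adjusted *P* = 0.963 for both. Ppia (cyclophilin A, a peptidyl-prolyl isomerase) was the other gene with every KD library above both NC libraries, in both sets of libraries. Its levels in the 4 libraries were 1146 and 1098 CPM in NC against 1181 and 1166 CPM in KD, a log2 fold change of 0.065 ± 0.076 (SE, edgeR adjusted *P* = 0.974). Sdha, the flavoprotein subunit of succinate dehydrogenase, lay below both NC libraries in every KD library, at 264 and 283 CPM in NC against 257, 264 and 262 CPM in KD over the 5 libraries. The gap between the nearest Sdha values, NC replicate 1 and siRNA596 replicate 1, was below 1 CPM. Actb (β-actin) lay below NC in the 4 libraries, at 2678 and 2604 CPM in KD against 2748 and 2987 CPM in NC, with a log2 fold change of -0.12 ± 0.079 (SE, edgeR adjusted *P* = 0.967). So 2 of the 9 lay wholly above NC and 1 wholly below in all 5 libraries, where 8.3% of all genes lay above and 9.48% below. With the 4 libraries 2 lay above and 2 below, where 16.4% of all genes lay above and 16.4% below. For Hprt, Tbp, B2m, Ywhaz and Gusb the groups overlapped in both sets. Scaling by library totals alone left these sides in place for all except Tbp, which then lay below NC in every KD library, at 47.3 and 46.6 CPM in NC against 42.5, 46.2 and 32.6 CPM in KD.

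**Figure D1:**
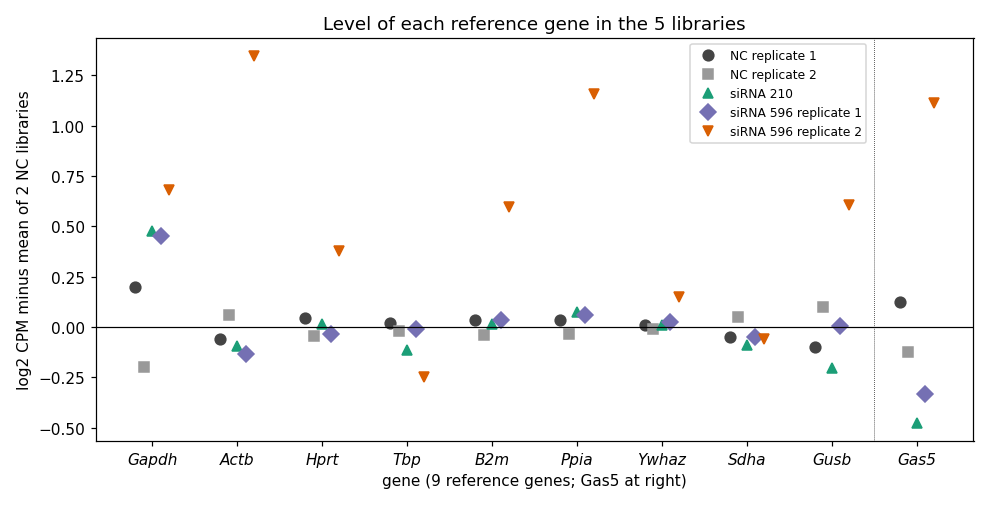
Level of each of the 9 reference genes and of Gas5 in each library, as log2 CPM (TMM over 5 libraries) minus the mean of the 2 NC libraries; each symbol is 1 library. Gapdh is the reference gene whose siRNA210 and siRNA596 replicate 1 libraries lie farthest above zero. The library labelled siRNA596 replicate 2 is the highest for every gene shown except Tbp, where it is the lowest, and Sdha. It stands out most for Actb, Gas5 and Ppia.

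The second question was how steady each gene was, whatever the group. The range of log2 CPM, highest minus lowest library, was used as a description with no test. Shares of all genes by range, given below, were not matched for level. Of the 16142 genes tested in all 5 libraries, 5034 averaged 50 CPM or more. Over the 4 libraries Ywhaz (14-3-3 zeta, an adaptor that binds phosphorylated proteins) had the smallest range of the 9. Its levels of 641 and 632 CPM in NC and 640 and 647 CPM in KD gave a range of 0.034, and only 0.429% of all genes tested had a smaller one. The invariant light chain of MHC class I molecules, encoded by B2m, followed with 278, 265, 274 and 277 CPM in NC replicates 1 and 2, siRNA210 and siRNA596 replicate 1, a range of 0.072. Hprt, which salvages hypoxanthine and guanine, ranged over 0.084 with 122 and 115 CPM in NC and 120 and 115 CPM in KD. For these 3 genes the lowest and the highest library lay less than 0.1 PCR cycle apart.

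Ppia ranged over 0.11 in the 4 libraries, Tbp (the TATA-box-binding subunit of TFIID) over 0.14, Sdha over 0.14 and Actb over 0.20. Tbp was the gene of lowest level, with 47.3 and 46.1 CPM in NC and 43.1 and 46.3 CPM in KD. Gusb, the lysosomal β-glucuronidase, had a range of 0.30, with 85.2 and 97.8 CPM in NC and 79.3 and 91.7 CPM in KD, so that its NC libraries differed as much as its KD libraries did. Gapdh had the widest range of the 9, at 0.67, and 73.5% of all genes tested ranged less. None of the 9 ranged over more than 1 PCR cycle in the 4 libraries, where 16% of all genes did, and 1 of 9, Gapdh, ranged over more than 0.5, where 35.1% of all genes did.

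The library labelled siRNA596 replicate 2 changed this order. Actb had 93135 and 110228 reads in NC, 92384 in the siRNA210 library, 89797 in siRNA596 replicate 1 and 185014 in the library labelled siRNA596 replicate 2, the last being 1.403 above the mean of the other 4 libraries on the log2 CPM scale. Ppia rose likewise in reads, from between 38858 and 40733 in the other 4 libraries to 63678, which was 1.13 above their mean in log2 CPM. Gusb lay 0.65 above that mean, B2m 0.58, Gapdh 0.45, Hprt 0.38 and Ywhaz 0.14, whereas Sdha lay at -0.025 and Tbp at -0.21. Thus 7 of the 9 genes lay higher in that library and 2 lower. By this difference Tbp exceeded 44.7% of all genes tested, Sdha 50.9%, Ywhaz 57.0%, Hprt 65.2% and Gapdh 67.4%. B2m exceeded 71.6%, Gusb 73.8%, Ppia 86.0% and Actb 91.4%. Under scaling by library totals alone Ywhaz changed side, at 585 CPM there against 632 to 646 CPM in the other 4 libraries. As a comparison from the same library, Gas5 lay 1.31 above, next to Actb and Ppia.

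With all 5 libraries the range was 1.48 for Actb, 1.19 for Ppia, 0.88 for Gapdh, 0.81 for Gusb, 0.63 for B2m, 0.42 for Hprt, 0.27 for Tbp, 0.16 for Ywhaz and 0.14 for Sdha. Sdha and Ywhaz were the narrowest, and just 1.10% and 1.55% of all genes had a smaller range. Ranges over 1 were found for 2 of the 9, against 53.8% of all genes, and ranges over 0.5 for 5 of the 9, against 81.6% of all genes. These values depended on how that library was scaled, least so for Ywhaz. When libraries were scaled by their total counts alone, in place of TMM, the 5-library range became 0.15 for Hprt, 0.54 for Tbp and 0.34 for B2m. It became 0.40 for Sdha and 0.64 for Gapdh, so Hprt was then narrower than Sdha and Tbp. The same scaling gave 1.21 for Actb, 0.90 for Ppia, 0.56 for Gusb and 0.14 for Ywhaz. Ppia then no longer ranged over more than 1, and Actb still did. The TMM factor of the library was 0.862, while those of the other 4 lay between 1.02 and 1.05.

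**Figure D2:**
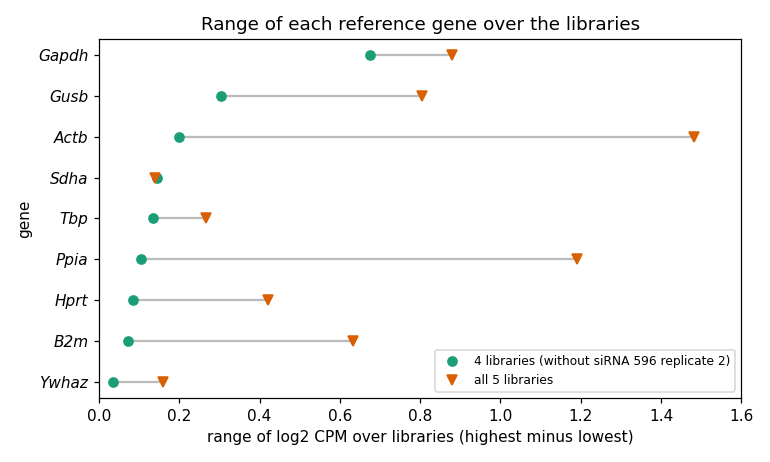
Range of log2 CPM (TMM), highest minus lowest library, for each reference gene with all 5 libraries and with the 4 left after the library labelled siRNA596 replicate 2 is taken out. Gapdh has the widest range in the 4 libraries at 0.67, Actb the widest in all 5 at 1.48, and Sdha has 0.14 in both.

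A measure that needs no library scaling was also computed. For each gene the standard deviation over libraries of its log2 ratio to each other reference gene was averaged over the 8 ratios (the M value of the geNorm method, lower being steadier). In the 4 libraries M was 0.096 for Ywhaz, 0.099 for B2m, 0.11 for Hprt, Ppia and Tbp, 0.12 for Sdha, 0.14 for Actb, 0.17 for Gusb and 0.34 for Gapdh. Gapdh thus came last by this measure too. The steadiest of the 36 pairs was B2m with Ywhaz, whose log2 ratio ranged over 0.052, and the widest was Gapdh with Gusb, which ranged over 0.98. With all 5 libraries M was lowest for Hprt (0.24) and B2m (0.24) and highest for Actb (0.48), the steadiest pair was Hprt with B2m (range 0.22), and the widest was Actb with Tbp (range 1.72). In 9 of the 36 pairs the ratio then ranged over more than 1 PCR cycle, against 0 of 36 in the 4 libraries.

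Levels were compared between genes as CPM per kilobase of the main annotated transcript. In the order of the NC means, with NC replicates 1 and 2 given, Actb had 1379 and 1497 CPM per kilobase, Ppia 944 and 902, B2m 312 and 296, Ywhaz 270 and 266, Gapdh 153 and 116, Sdha 90.9 and 97.6, Hprt 91.3 and 86.0, Gusb 30.6 and 35.0, and Tbp 22.1 and 21.4. Neighbours in this order did not overlap between the NC replicates, except Sdha and Hprt. The level of Gapdh, the fifth of the 9, rests on how reads were divided among copies of its sequence.

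Of the 50-base words in the annotated Gapdh transcripts, 74.9% occurred in no other annotated gene. The share was 82.7% for Ppia, 83.7% for Tbp, 84.8% for Ywhaz and 90.9% for Actb, and 100% for Hprt, B2m, Sdha and Gusb. There were 59 genes that shared at least 20% of their own 50-base words with Gapdh, of which 57 are annotated as pseudogenes and 52 had at least 10 reads in some library. Reads counted to these 59 genes summed to 38019 and 28282 in NC, 47246 in the siRNA210 library, 44457 in siRNA596 replicate 1 and 28779 in the library labelled siRNA596 replicate 2. Of the reads counted to Gapdh and these genes together, only between 15.2% and 19.95% were counted to Gapdh itself. How reads that map to several places were treated is not given in the sources used here.

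A pair of processed pseudogenes, Gm13394 on chromosome 2 and Gm5559 on chromosome 5, each held more reads than Gapdh in every library. Gm13394 shares 94.7% of its words with Gapdh and had 15987 and 11557 reads in NC, 19490 in the siRNA210 library, 17550 in siRNA596 replicate 1 and 7908 in the library labelled siRNA596 replicate 2. Gm5559 shares 94.8% and had 15032, 10507, 18220, 17620 and 16651 reads in the same order. Gm7336 on chromosome 7 shares 95.6% and had 5341, 4894, 7775, 7692 and 3129 reads. Whether these reads came from the pseudogenes or from Gapdh cannot be told apart from the counts. In all 3 the whole GAPDH RT-qPCR product was identical to that of Gapdh.

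The copies followed the same order of libraries as Gapdh in the 4 libraries. In edgeR their log2 fold changes, KD against NC, were 0.45 ± 0.16 (SE) for Gm13394, 0.51 ± 0.17 for Gm5559 and 0.63 ± 0.096 for Gm7336, each with an adjusted *P* of 0.967. When all reads of Gapdh and its 59 sharing genes were summed into 1 feature, its level was 1323 and 922 CPM in NC against 1614 and 1529 CPM in KD, a log2 fold change of 0.49 ± 0.14 (SE, edgeR unadjusted *P* = 0.0078, adjusted *P* = 0.968). In all 5 libraries the sum gave 0.44 ± 0.27 (SE, adjusted *P* = 0.963). The summed level in NC was 1003 and 696 CPM per kilobase of Gapdh, which lay either side of the 944 and 902 of Ppia. In the library labelled siRNA596 replicate 2 the copies parted, since Gm13394 and Gm7336 had their lowest read counts there and Gm5559 did not.

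**Figure D3:**
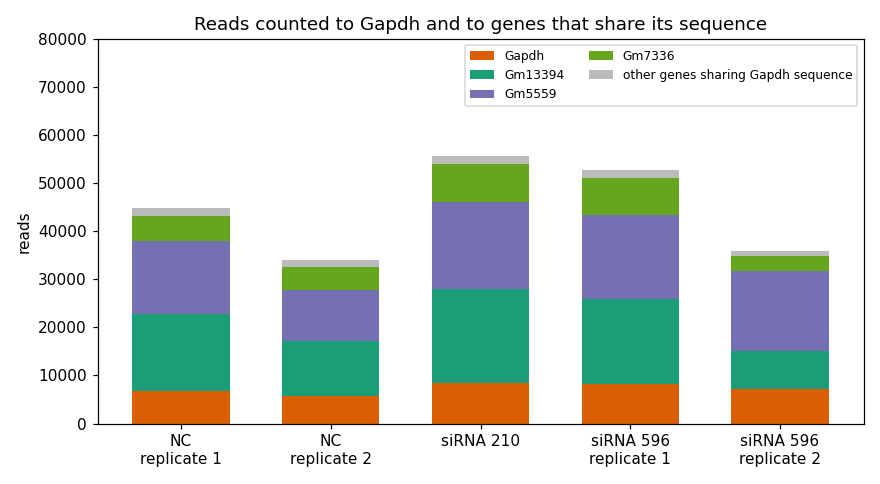
Reads counted to Gapdh, to the 3 sharing genes with the most reads and to the other genes sharing its sequence, stacked for each library as reads. Gapdh's own reads make up between 15.2% and 19.95% of each bar, and NC replicate 2 and the library labelled siRNA596 replicate 2 have the shortest bars.

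Sequence sharing was small for the other genes. Ppia had 15 sharing genes, whose reads were between 4.99% and 8.51% of the joint reads. Most of these were counted to Gclm, with 2827 of 3614 reads in NC replicate 1. Gclm is a protein-coding gene that shares 28.9% of the words of a transcript with Ppia, so this share includes reads of Gclm itself. Next came the processed pseudogene Gm10123, with 486 reads in that library. Ywhaz had 3 sharing genes, with between 0.311% and 1.79% of the joint reads, and Actb, Hprt, B2m, Sdha and Gusb had none. Tbp shared bases in another way. All 2582 exonic bases of Pdcd2, on the opposite strand, lie within annotated Tbp exons, and Pdcd2 had 0 reads in every library; whether the counting used strand is not given in the sources used here. Gapdh overlaps Iffo1 on the opposite strand by 68 bases.

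The third question was what each reference does to relative Gas5. Gas5 reads were divided by the reads of the reference gene in the same library, as RT-qPCR does with cycle differences, and given as percent of the geometric mean of the NC libraries. Counting error was small, with a standard error between 0.021 and 0.050 on the log2 scale for the ratios to single genes. Relative to Gapdh, Gas5 was at 94.9% and 105% in NC, 51.7% in the siRNA210 library, 58.1% in siRNA596 replicate 1 and 135% in the library labelled siRNA596 replicate 2. Relative to the summed reads of Gapdh and its sharing genes, Gas5 was at 90.8% and 110% in NC. With that sum it was at 49.1% in the siRNA210 library, 57.3% in siRNA596 replicate 1 and 169% in the library labelled siRNA596 replicate 2. Gapdh gave the lowest relative Gas5 of the 9 references in both the siRNA210 library and siRNA596 replicate 1.

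In the siRNA210 library the other 8 references placed Gas5 between 68.3% (Ppia) and 82.8% (Gusb) of NC, and in siRNA596 replicate 1 between 76.4% (Ppia) and 87.4% (Actb). The steadiest gene of the 4 libraries, Ywhaz, gave 108% and 92.5% in NC, 71.5% in the siRNA210 library and 78.1% in siRNA596 replicate 1. Very close to these were B2m, with 71.1% and 77.7% in the same KD libraries, and Hprt, with 71.2% and 81.6%. The geometric mean of all 9 gave 71.4% and 77.4%, and that of the 8 without Gapdh gave 74.4% and 80.3%. Highest over lowest reference was thus 1.602-fold in the siRNA210 library and 1.504-fold in siRNA596 replicate 1. The 1.23-fold of each NC library is not a baseline for these, since both NC libraries are set against their own mean.

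Under all 9 references Gas5 in these KD libraries lay below both NC libraries. The margin was narrow for some. With Gusb, NC replicate 2 was at 85.7% and the siRNA210 library at 82.8%, and with Actb, NC replicate 2 was at 88.0% and siRNA596 replicate 1 at 87.4%. The order of the NC libraries themselves depended on the reference. Relative to Gapdh, NC replicate 1 had the lower Gas5, and relative to each of the other 8, NC replicate 2 did.

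The library labelled siRNA596 replicate 2 gave the widest span, 3.01-fold. Gas5 there was at 85.0% of NC relative to Actb and 96.7% relative to Ppia, but at 142% with Gusb, 143% with B2m, 166% with Hprt, 195% with Ywhaz, 225% with Sdha and 256% with Tbp. It was therefore below 100% under 2 references and above under 7. Actb and Ppia were also the reference genes with the largest excess in that library. Only relative to Actb did all 3 KD libraries lie below both NC libraries, and the nearest values, 88.0% and 87.4%, differed by less than their counting error.

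**Figure D4:**
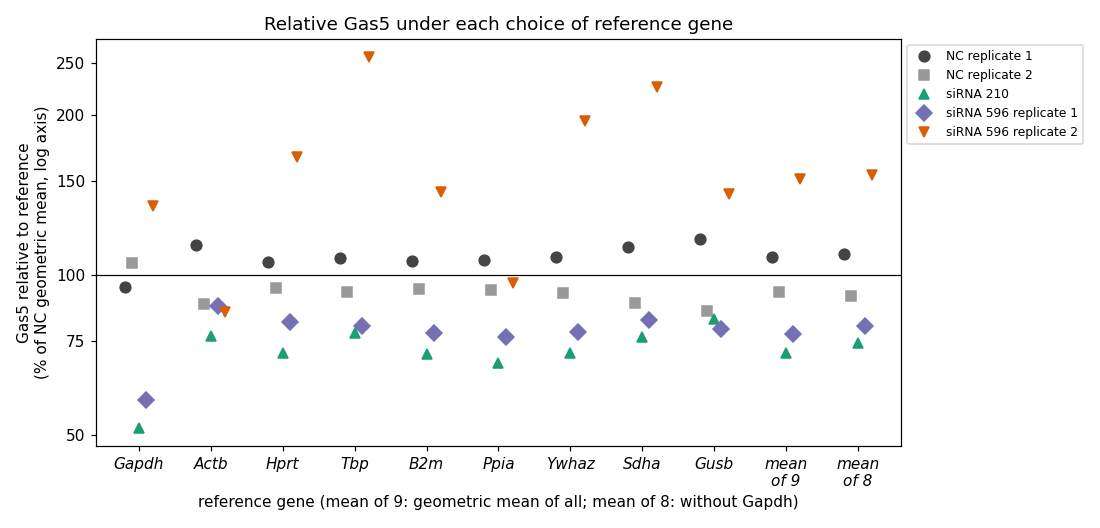
Gas5 reads per reference-gene read in each library, as percent of the geometric mean of the 2 NC libraries on a log axis, for each of the 9 reference genes, the geometric mean of the 9 and that of the 8 without Gapdh. Gapdh places the siRNA210 and siRNA596 replicate 1 libraries lowest, at 51.7% and 58.1%, and the library labelled siRNA596 replicate 2 lies between 85.0% and 256% depending on the reference.

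For a test across libraries, each reference gene in turn replaced TMM as the scale of all libraries, and edgeR was fitted to the whole table. In the 4 libraries KD held a single library of each siRNA, so the spread within KD mixes siRNA with replicate. With the 4 libraries and Gapdh as scale, Gas5 had a log2 fold change of -0.87 ± 0.26 (SE) and an adjusted *P* of 0.094, so it did not pass 0.05, which 38 of 15867 genes (0.239%) did. With the summed reads of Gapdh and its sharing genes as scale, the log2 fold change of Gas5 was -0.92 ± 0.34 (SE, edgeR adjusted *P* = 0.274). With TMM it was -0.41 ± 0.11 (SE, edgeR adjusted *P* = 0.967). The remaining 8 references gave log2 fold changes between -0.47 (Ppia) and -0.30 (Actb), with edgeR adjusted *P*-values from 0.699 upward. On a linear scale Gas5 in KD was 54.8% of NC with Gapdh, against 72.2% to 81.5% with the others and 75.4% with TMM. All 9 references gave a lower Gas5, and 7 of them an unadjusted *P* under 0.05, Actb and Gusb being the exceptions. In these fits between 408 (Gusb) and 5078 (Gapdh) of the 15867 genes had an unadjusted edgeR *P* under 0.05. The 9 fits share the same Gas5 counts, so they are not independent of each other.

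Scaling by Gapdh moved the whole transcriptome. The median log2 fold change over all genes was -0.48 with Gapdh in the 4 libraries, and only 6.19% of genes had a positive value, whereas with TMM the median was -0.0023 and 49.5% were positive. Relative to that median Gas5 was lower by about the amount seen with TMM. With Ywhaz as scale the median was -0.018 and 45.7% of genes were positive, with Hprt 0.0099 and 52.3%, and with Actb 0.12 and 74.9%.

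With all 5 libraries the direction of Gas5 depended on the reference. Its log2 fold change was -0.32 with Ppia, -0.30 with Gapdh, -0.28 with Actb and -0.042 with B2m, but 0.0022 with Gusb, 0.087 with Hprt, 0.19 with Ywhaz, 0.35 with Sdha and 0.46 with Tbp. Of the 9 references 4 therefore gave a lower and 5 a higher Gas5. TMM gave 0.29 ± 0.53 (SE) and the geometric mean of the 9 gave -0.0020 ± 0.39 (SE). The summed reads of Gapdh and its sharing genes gave -0.13 ± 0.52 (SE). The standard errors lay above each of these values except that with Ppia (0.31), edgeR adjusted *P*-values ran from 0.725 upward, and no reference gave an unadjusted *P* under 0.05.

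The pathway neighbours of each reference gene were read next, from lists of known partners. Gapdh's neighbours were 15 other genes of glycolytic enzymes, all tested. In the 4 libraries 8 of the 15 had both KD libraries above both NC libraries and 0 had them below (16.4% of all genes each way), and the median log2 fold change was 0.25, against -0.0023 over all genes. Hk1, a hexokinase named after its values were seen, was the 1 of 15 with an unadjusted *P* under 0.05, where 3.3% of all genes had one. Its log2 fold change was 0.26 ± 0.11 (SE, edgeR adjusted *P* = 0.967). NC replicate 2 was the lowest of the 4 libraries in all 15, where it was the lowest for 33.9% of all genes, and it was also the lowest for Gapdh. For example Aldoa, an aldolase, was at 2021 and 1378 CPM in NC against 2144 and 1962 CPM in KD, and Pkm, the muscle-type pyruvate kinase, at 4747 and 3615 CPM against 5032 and 4734 CPM. For both, siRNA596 replicate 1 was below NC replicate 1. The median log2 difference of NC replicate 2 from NC replicate 1 was -0.39 over the 15 genes, and it was -0.40 for Gapdh. Unlike for Aldoa and Pkm, both KD libraries of Gapdh lay above NC replicate 1 as well, which it shared with 8 of the 15 genes.

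With all 5 libraries 3 of the 15 lay wholly above NC and none below (8.3% and 9.48% of all genes), with a median of 0.16. The largest differences without overlap were those of Aldoc, an aldolase of low level here (1.56 and 1.25 CPM in NC against 1.82, 2.32 and 2.20 CPM in KD), and of Pfkm, a phosphofructokinase (113 and 94.0 CPM against 119, 115 and 130 CPM). The log2 fold change of Pfkm was 0.23 ± 0.21 (SE, edgeR adjusted *P* = 0.963). In the library labelled siRNA596 replicate 2 these genes did not keep together, and Hk2, Pfkp and Pgam1 lay more than 1 log2 unit below NC replicate 1.

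**Figure D5:**
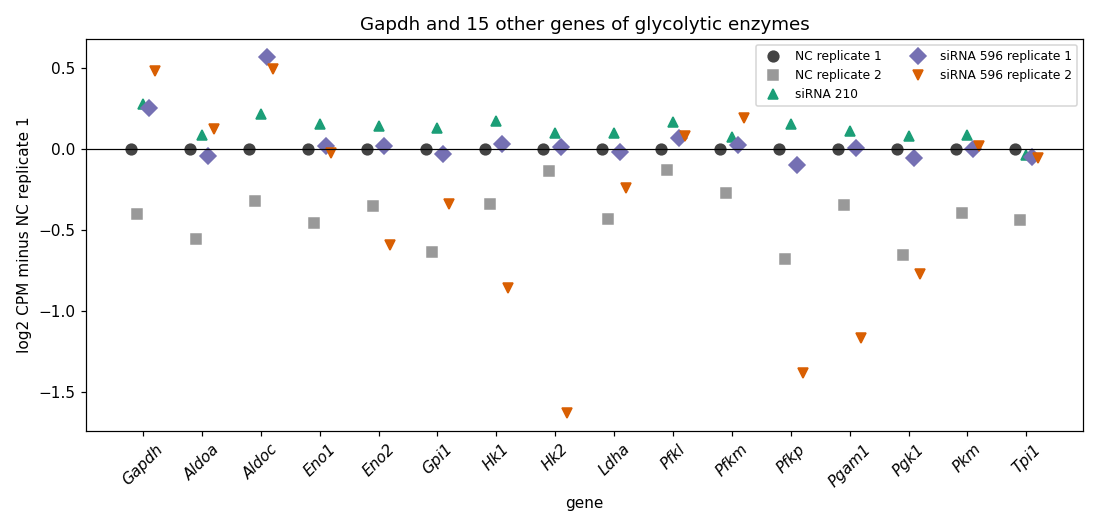
Gapdh and 15 other genes of glycolytic enzymes in each library, as log2 CPM (TMM over 5 libraries) minus NC replicate 1, which is at 0 by construction. NC replicate 2 lies below NC replicate 1 in every gene shown, and the siRNA210 and siRNA596 replicate 1 libraries lie well above NC replicate 1 for Gapdh and Aldoc but close to it for most others.

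Over the 5 libraries the genes whose centred log2 levels were most like those of Gapdh, by the root mean square difference among the 5034 genes averaging 50 CPM or more, were Eno1b (0.074), a close copy of the enolase gene Eno1, Galk1 (0.084), a galactokinase, Ctsa (0.092), a lysosomal carboxypeptidase, Htra1 (0.092), a secreted serine protease, and Wbp2 (0.093), a WW domain-binding protein. Each was lowest in NC replicate 2 and highest in the library labelled siRNA596 replicate 2, as Gapdh was. The genes were picked by likeness to Gapdh, so this shared order is not a separate result. Eno1b was at 318 and 239 CPM in NC, 365 in the siRNA210 library, 336 in siRNA596 replicate 1 and 395 in the library labelled siRNA596 replicate 2.

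Actin cytoskeleton genes were read beside Actb. Of 19 listed, 17 were tested and Tagln and Myl9 were not. In all 5 libraries 1 lay wholly above NC and 1 wholly below (8.3% and 9.48% of all genes), the median log2 fold change was 0.27 against 0.011 over all genes, and 9 ranged over more than 1, as 53.8% of all genes did. Profilin 1 (Pfn1), which binds actin monomers, was at 644 and 633 CPM in NC, 695 in the siRNA210 library, 671 in siRNA596 replicate 1 and 2086 in the library labelled siRNA596 replicate 2. Actn1 (α-actinin 1), which cross-links filaments, was at 289 and 315 CPM in NC against 285, 288 and 274 CPM in KD. In the 4 libraries 1 lay above and 2 below (16.4% of all genes each way), the median was -0.013 and 1 of the 17 ranged over more than 1 (16% of all genes).

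Beside Hprt, all 14 purine synthesis and salvage genes were tested, and 2 lay wholly above NC and 0 below in either set of libraries (8.3% and 9.48% of all genes in the 5, 16.4% each way in the 4). They had the narrowest median range of the 10 lists in all 5 libraries, 0.36, against 1.07 over all genes. Impdh1, which makes the guanine nucleotide precursor XMP, was at 102 and 100.05 CPM in NC against 106, 109 and 141 CPM in KD, and Paics, an enzyme of purine ring synthesis, at 262 and 241 CPM against 271, 267 and 266 CPM.

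Beside Tbp, 14 genes of TFIID subunits and the related factor Tbpl1 were tested. In all 5 libraries 3 lay wholly below NC and 0 above (9.48% and 8.3% of all genes), while the median log2 fold change was 0.097, and in the 4 libraries 4 lay below and 0 above (16.4% each way). Taf2 was at 297 and 444 CPM in NC against 265, 286 and 166 CPM in KD, and Taf1 at 183 and 175 CPM against 170, 173 and 50.2 CPM. Taf2 had an unadjusted *P* of 0.023 in the 4 libraries (edgeR adjusted *P* = 0.967), with NC replicate 2 at 462 CPM standing above the other 3 libraries. It was the 1 of the 14 under 0.05, where 3.3% of all genes were. The range of Taf1 over the 5 libraries was 1.86, against 0.27 for Tbp.

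Of the 13 MHC class I presentation genes beside B2m, 5 lay wholly above NC and 1 below in all 5 libraries (8.3% and 9.48% of all genes), and 7 above and 1 below in the 4 (16.4% each way). Psmb8, an immunoproteasome subunit, was at 19.1 and 11.7 CPM in NC against 19.8, 22.1 and 36.7 CPM in KD. Erap1, which trims peptides for loading, was at 23.8 and 36.1 CPM in NC against 20.8, 22.9 and 17.5 CPM in KD. It was the 1 gene of the list with an unadjusted *P* under 0.05 in the 4 libraries (0.034, edgeR adjusted *P* = 0.967), where 3.3% of all genes had one. The median over the list was 0.16 in the 4 libraries. NC replicate 2 was the lowest library for 9 of the 13, where it was the lowest for 33.9% of all genes. It was also the lowest for 13 of 21 lysosomal hydrolase genes and 17 of 32 other common reference genes.

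Among 12 other cyclophilin genes beside Ppia, 1 lay wholly above NC and 0 below in all 5 libraries (8.3% and 9.48% of all genes), and 1 above and 1 below in the 4 (16.4% each way). The gene above in all 5 was Ppil1, a spliceosomal cyclophilin, at 71.3 and 72.5 CPM in NC against 77.2, 74.5 and 164 CPM in KD. The median log2 fold change of the list was 0.33 in all 5 libraries and -0.043 in the 4. Of 6 other 14-3-3 genes beside Ywhaz, Ywhah lay wholly above NC in all 5 libraries, at 317 and 288 CPM in NC against 332, 321 and 334 CPM in KD, and 0 lay below (8.3% and 9.48% of all genes). With the 4 libraries 2 of the 6 lay above and 0 below (16.4% each way). Their median range in the 4 libraries was 0.19, against 0.034 for Ywhaz.

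Beside Sdha, 17 genes of the citric acid cycle and its succinate dehydrogenase complex were tested, and 3 lay wholly above NC and 0 below in all 5 libraries (8.3% and 9.48% of all genes), and 4 above and 3 below in the 4 (16.4% each way). Mdh2, mitochondrial malate dehydrogenase, was at 337 and 329 CPM in NC against 362, 346 and 870 CPM in KD. Sdhd, a membrane anchor of the complex that Sdha belongs to, was at 114 and 117 CPM in NC against 123, 121 and 200 CPM in KD. In the 4 libraries this list had a median range of 0.10, the narrowest of the 10 lists, and a median log2 fold change of -0.00092.

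Of 21 lysosomal hydrolase genes beside Gusb, 6 lay wholly above NC and 2 below in all 5 libraries (8.3% and 9.48% of all genes), and 10 above and 2 below in the 4 (16.4% each way). Hexa, a β-hexosaminidase subunit, was at 70.9 and 63.4 CPM in NC against 72.6, 82.4 and 154 CPM in KD, and Ctsd, cathepsin D, at 150 and 142 CPM against 162, 158 and 340 CPM. Naglu, Arsa and Ctsa, named after their values were seen, had an unadjusted *P* under 0.05 in the 4 libraries, as 3.3% of all genes did, with log2 fold changes of 0.41, 0.26 and 0.30 (edgeR adjusted *P* = 0.967 each). The list's median was 0.087 in the 4 libraries. Gusb itself had overlapping groups.

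Finally, 32 other common reference genes were set beside the 9. Of these, 9 lay wholly above NC and 1 below in all 5 libraries (8.3% and 9.48% of all genes), and 9 above and 2 below in the 4 (16.4% each way). In the 4, their median range was 0.17 (0.14 for the 9 and 0.33 for all genes), and 1 ranged over more than 1 (16% of all genes). That gene was Tfrc, the transferrin receptor, at 131 and 370 CPM in NC against 107 and 134 CPM in KD, so that NC replicate 2 alone stood apart (log2 fold change -1.06 ± 0.36, SE, edgeR adjusted *P* = 0.967). In all 5 libraries 15 of the 32 ranged over more than 1, and 53.8% of all genes did. The narrowest were Eif4a2, an RNA helicase of translation initiation (range 0.16), Eef2, translation elongation factor 2 (0.32), and G6pdx, of the pentose phosphate pathway (0.33). The widest were Rpl13a (1.87), Rpl19 (1.83) and Tfrc (1.79). Rpl13a, a ribosomal protein gene, was at 40.5 and 40.1 CPM in NC, 42.9 in the siRNA210 library, 41.1 in siRNA596 replicate 1 and 147 in the library labelled siRNA596 replicate 2, and in the 4 libraries its range was 0.092. Cyc1, cytochrome c1, was at 186 and 177 CPM in NC against 200.5, 195 and 499 CPM in KD. Rpl19 was at 575 and 468 CPM in NC against 546, 531 and 1671 CPM in KD. Eif4a2 was at 259 and 289 CPM in NC against 267, 260 and 259 CPM in KD, close to the range of Ywhaz (0.16).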

How the data were processed

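Poly(A) RNA of HT22 cells was sequenced in 5 libraries, and samples were grouped by the siRNA in their titles (the NC samples are also described as untreated in the labels). The counts deposited by the authors are raw whole reads per gene, made per the paper's methods and the submitters' processing notes with Trimmomatic, HISAT2 2.1.0, SAMtools 1.7 and featureCounts 2.0.1 on GRCm38, without normalization. The authors' deposited comparison, made with DESeq2 1.26.0, holds mean normalized counts (a signal across libraries), used only to find its libraries. Its fold changes and P-values were not used.

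Genes were named by GENCODE M21 (99.5% of 55487). Genes past filterByExpr were tested with TMM scaling and the quasi-likelihood test of edgeR 4.0.16 in R 4.3.3, with Benjamini-Hochberg adjustment over all genes tested. For relative Gas5 the library scale was made proportional to the reference gene's reads. Such fits average on the count scale and differ from the mean of the log2 ratios. DESeq2 1.42.0, DESeq2's size factors, library size only, filters and leaving out each library were alternatives, and steps were tested on simulated data. Words of 50 bases and the study's primers were matched to annotated transcripts only, with no genome. Figures used Python 3.11.15 and matplotlib 3.10.9. The 9 genes and the gene lists were chosen with earlier results of these data known. From each list the text names up to 2 genes with the largest difference among those whose KD and NC libraries did not overlap, and of the other reference genes the 3 narrowest and 3 widest. Aldoa and Pkm, and the genes said to be so, were named after their values were seen. Library totals limit counting error, and 2 NC libraries limit the precision.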

Additional observations from a re-analysis of the deposited data

Results flagged for a closer look

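Gusb lay below the NC mean in the siRNA210 library and, by a very small margin in replicate 1, above it in the siRNA596 libraries, and it passed no test. Against the mean of the NC libraries its log2 CPM was -0.2015 in the siRNA210 library, 0.007061 in siRNA596 replicate 1 and 0.6036 in the library labelled siRNA596 replicate 2. The value above NC thus rests on the library whose Gas5 went against its label. The difference between the siRNAs was not tested, siRNA210 has 1 library, and the value of siRNA596 replicate 1 was much smaller than the difference between the NC libraries (0.20 on the log2 scale in the 4 libraries).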

How the results depend on the processing

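The counts of reference genes past an unadjusted *P* of 0.05 ran from 0 to 1 when each of the 5 libraries was left out in turn, with 1 reached without the library labelled siRNA596 replicate 2, and from 1 to 2 in the 4 libraries, with 2 reached without NC replicate 1. Gas5 relative to Gapdh ran from -0.87 to -0.053 with 1 of the 5 libraries left out, and reversed with TMM (0.29) and with the geometric mean of the other 8 reference genes, an alternative chosen after seeing the data (0.034). In the 4 libraries it ran from -0.95 to -0.79, all lower than NC, and it passed an adjusted *P* of 0.05 without NC replicate 1 (-0.94) and without NC replicate 2 (-0.79), fits of 3 libraries in which the lone NC library is assumed to vary like the KD libraries. The same held for 9 other such fits without 1 NC library, with Actb (1), Hprt (2), B2m (1), Ppia (2), Sdha (1) and the geometric mean (2) as scale. With none of the 4 libraries left out, Gas5 was at -0.41 with TMM in place of Gapdh. It was at -0.43 with the geometric mean of the 9 reference genes and -0.38 with that of the other 8. The summed reads of Gapdh and its sharing genes gave -0.92. Leaving out 1 of the 5 libraries turned the direction of Gas5 relative to 7 other scales. It ran from -0.39 to 0.31 for Hprt, -0.34 to 0.75 for Tbp, -0.43 to 0.14 for B2m, -0.42 to 0.44 for Ywhaz, -0.34 to 0.61 for Sdha, -0.32 to 0.24 for Gusb and -0.43 to 0.19 for the geometric mean, the lowest value each time being that without the library labelled siRNA596 replicate 2. The cause was not tested. Of 244 values under alternatives, 193 kept their direction and side of the threshold or stayed within the spread.

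For siRNA596 against NC, the groups that share replicate numbers, the correlation of same-numbered deviations was 0.095, so the numbers were not taken as pairs. With a replicate block 0 of the 9 reference genes passed an unadjusted *P* of 0.05, as without it, Gas5 relative to Gapdh was -0.18 (-0.053 without the block), and 428 genes in place of 41 had an unadjusted *P* under 0.05. Depth does not limit these genes, the least of which had 1001 reads, but 2 NC libraries do.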
